A study of Mus musculus with 18 samples.

Results

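Transcripts of 10 genes that protect cells against reactive oxygen and metal stress were followed in mouse hearts under pressure overload, without and with active Akt. They are the antioxidant enzymes Cat, Sod1, Sod2, Gpx1, Gpx3, Prdx3, Hmox1 and Gclc, and the metallothioneins Mt1 and Mt2. The genes were chosen by name out of 18194 that the platform annotation ties to a probe set of their own, and every probe set annotated to exactly 1 of them was taken from chips 430A and 430B. This gave 20 probe sets, of which 18 lay among the 60% brightest of their chip and were tested. The other 2, an x-type probe set of Sod1 (1447761_x_at, signals of 3.14 to 20.4) and a dim probe set of Mt1 (1451612_at, signals of 33.2 to 84.2), were left untested. All 10 genes kept at least 1 tested probe set.

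The hearts came from male mice of the line Tet-myrAkt1/αMHC-tTA, in which a membrane-targeted, active Akt1 can be switched on by a driver under the alpha myosin heavy chain promoter, so that the transgene acts in heart muscle cells. All 3 groups carry both transgenes. They are hearts taken before AAC, the operation that overloads the left ventricle, at an age of 8 weeks, hearts at 4 weeks after AAC at 12 weeks of age, and hearts at 6 weeks after AAC with Akt on. Each group has 3 hearts, and each heart was read on chip 430A and on chip 430B. The labels of the Akt group are at odds on its length, with 3 weeks in the titles and 2 in the descriptions, and give it an age of 12 weeks, as for the hearts at 4 weeks. In the descriptions, 4-week replicate 3 is numbered 1. No hearts at 6 weeks without Akt and no unoperated hearts of the later age were among the samples, so that Akt, time after the operation and age cannot be told apart. The labels do not say whether RNA of several animals was pooled, and p-values measure the spread between these samples only.

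Akt1 probe set 1425711_a_at read 708, 383 and 496 before AAC, 571, 821 and 917 at 4 weeks, and 2613, 3762 and 6535 with Akt on, and the Akt hearts exceeded the 4-week hearts by 2.36 on the log2 scale (limma, adjusted p = 0.00312). The other 2 Akt1 probe sets were not past the threshold in any comparison. All 8 cardiomyocyte markers were bright enough to be tested. Median signals per array were 174 to 207 on chip 430A and 62.2 to 70.5 on chip 430B, and arrays of a group correlated at 0.950 to 0.976 and 0.881 to 0.939. In 2 respects hearts stood apart. The ratio of 3′ to 5′ control probe sets on chip 430A, a sign of RNA quality, was 1.26, 1.52 and 1.64 before AAC and 0.917 to 1.06 in the 6 later hearts, so that RNA quality and the operation cannot be told apart in any comparison with the hearts before AAC. The atrial marker score, the mean log2 signal of Nppa, Myl4, Myl7 and Sln, ran from 8.09 to 14.4 and differed more within groups than between them.

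Superoxide formed by the respiratory chain and by oxidases is turned into hydrogen peroxide by the superoxide dismutases, Sod1 in the cytosol and Sod2 in the mitochondrial matrix. Peroxide is then removed by catalase in peroxisomes, by glutathione peroxidases and by peroxiredoxins. Heme oxygenase degrades heme, glutamate-cysteine ligase makes the first step of glutathione synthesis, and metallothioneins bind zinc and copper through their cysteines and respond to metals, glucocorticoids and stress. The heart, with its dense mitochondria, depends on these enzymes, and active Akt is known to keep FoxO factors, which can drive Cat and Sod2, out of the nucleus.

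Values below are deposited MAS5 signals, on a scale with no unit. Differences are on the log2(signal + 32) scale, with standard errors, and were tested two-sided with limma across 27083 probe sets with Benjamini-Hochberg adjustment. A probe set is said to have risen or fallen where the adjusted p is under 0.05. Levels are not compared between probe sets, since each has its own brightness. In whole hearts, fewer cells of a type and less RNA per cell cannot be told apart.

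Catalase, which splits hydrogen peroxide, was higher after AAC on its probe set 1416430_at. Signals before AAC were 965, 1204 and 1070.4. They were 1985, 1944 and 1839 at 4 weeks, and 1382, 2018 and 2132 with Akt on. Every later heart lay above every heart before AAC, and replicate 1 with Akt on lay lowest of the later hearts. Cat rose 1.76-fold at 4 weeks (log2 difference 0.82, SE 0.16, adjusted p = 0.0237) and was 1.67-fold higher with Akt on than before AAC (0.74, SE 0.16, adjusted p = 0.0132). The difference between the Akt and 4-week hearts was -0.08 (95% interval -0.44 to 0.27, adjusted p = 0.852).

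The second catalase probe set, 1416429_a_at, did not follow it. It read 1143, 1284 and 1238 before AAC, 782, 1624 and 2246 at 4 weeks, and 2016, 845 and 1544 with Akt on. Each of the later groups therefore held a heart below and hearts above the whole range before AAC, and the differences from before AAC of 0.21 and 0.18 had adjusted p of 0.777 and 0.794. In 4-week replicate 1 and Akt replicate 2 the 2 probe sets moved in opposite directions from the mean before AAC, as the plot of probe sets side by side shows. The rise of Cat thus rests on 1 of its 2 probe sets. It was past the threshold in 4 of 9 fits that each left out 1 heart for 4 weeks (adjusted p up to 0.0821, not past it without any of the hearts before AAC or without 4-week replicate 1 or 2). For Akt on against before AAC it was past it in 5 of 9 (up to 0.0535, not past it without replicate 1 or 3 before AAC or Akt replicate 2 or 3).

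**Figure D1:**
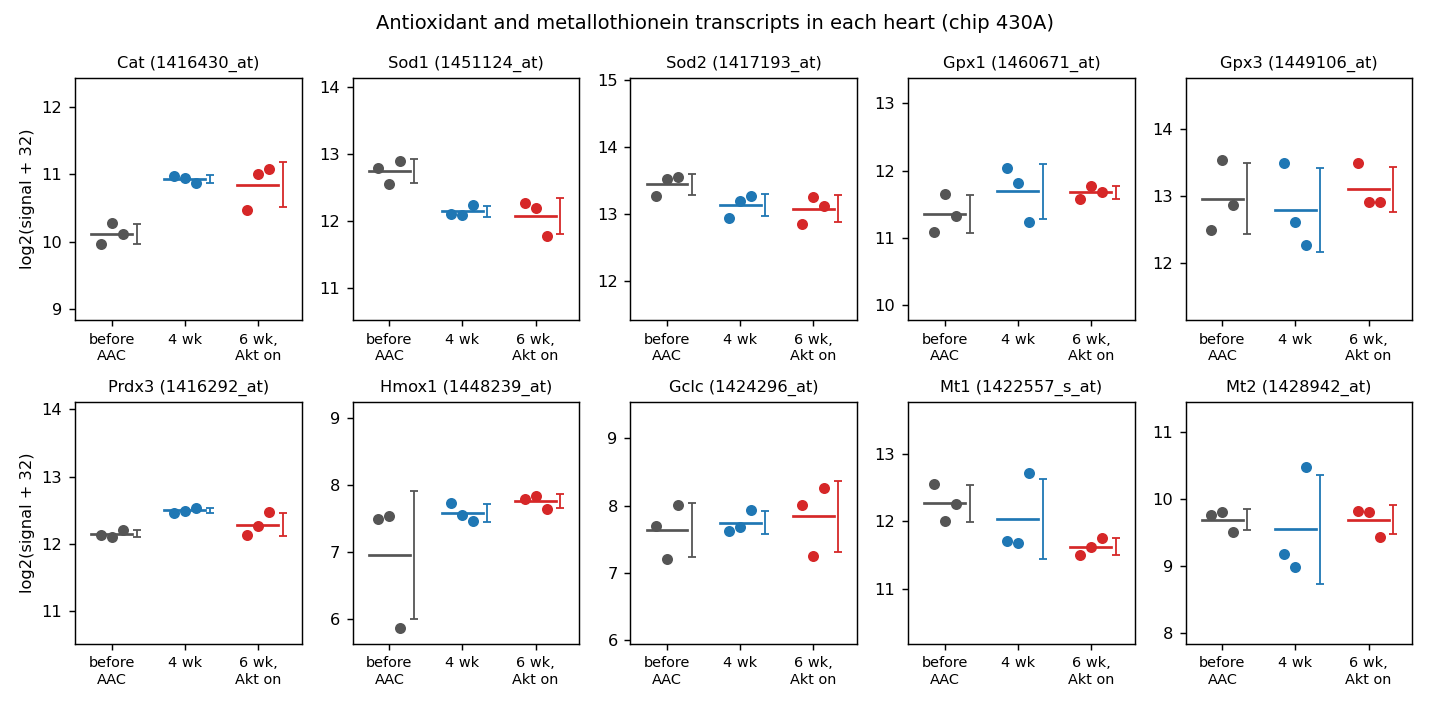
Log2(signal + 32) of a probe set of each of the 10 genes on chip 430A in the 3 hearts of each group; points are hearts, horizontal lines group means, vertical bars 1 SD (n = 3). Each panel has its own vertical position but the same span, and only in the Cat (1416430_at) and Sod1 (1451124_at) panels are both later groups past the threshold against the hearts before AAC.

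Sod1, the copper and zinc enzyme, was lower after AAC on its bright probe set 1451124_at. Its signals were 7066, 6012 and 7619.5 before AAC, 4388, 4360.2 and 4826 at 4 weeks, and 4931, 4663 and 3472 with Akt on. All 6 later hearts lay below all hearts before AAC, while the later groups overlapped. Sod1 fell 1.52-fold at 4 weeks (log2 difference -0.60, SE 0.14, adjusted p = 0.0396) and was 1.59-fold lower with Akt on than before AAC (-0.67, SE 0.14, adjusted p = 0.0116). The difference between the later groups was -0.07 (95% interval -0.38 to 0.25).

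The fall of Sod1 with Akt on was past the threshold in 8 of 9 fits without a heart (adjusted p = 0.0596 without replicate 3 before AAC). The fall at 4 weeks was past it in 3 of 9, and in none that left out a heart of either group compared (adjusted p up to 0.149). The other 3 tested Sod1 probe sets were not past the threshold in any comparison. On chip 430B, 1459976_s_at read 2416, 2872 and 3272 before AAC, 2111, 2251 and 2460.3 at 4 weeks, and 2681, 2769.7 and 2118 with Akt on, lower by -0.32 and -0.17 than before AAC with overlapping groups. The dim 1440222_at differed from before AAC by -0.27 and -0.25, also with overlap.

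The remaining Sod1 probe set, 1435304_at, had an order of its own. It read 304, 277 and 203 before AAC, 179, 196 and 166 at 4 weeks, and 293, 294 and 350.3 with Akt on. The 4-week hearts lay below both other groups without overlap. The difference of Akt on against 4 weeks was 0.69 (1.62-fold, SE 0.17, 95% interval 0.31 to 1.07), the furthest from 0 of the 18 member probe sets in that comparison, and its adjusted p of 0.0595 missed the threshold. On 1451124_at no difference between these groups was seen, so that the Sod1 probe sets do not give 1 answer on Akt.

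Sod2, the manganese enzyme of mitochondria, was lower with Akt on than before AAC on 1 of its 4 probe sets. On chip 430B, 1454976_at read 1167, 1372 and 1547 before AAC, 879, 1182 and 1295 at 4 weeks, and 929.6, 643 and 778 with Akt on. The Akt hearts lay below all hearts before AAC and overlapped the 4-week hearts. Sod2 was 1.72-fold lower with Akt on than before AAC (log2 difference -0.78, SE 0.18, adjusted p = 0.015), with -0.29 at 4 weeks (adjusted p = 0.391) and -0.49 between the later groups (adjusted p = 0.183). The call was kept in 6 of 9 fits without a heart and missed the threshold without replicate 2 or 3 before AAC or Akt replicate 2 (adjusted p up to 0.0715).

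The 2 brightest Sod2 probe sets on chip 430A leaned the same way with smaller differences. On 1448610_a_at the hearts read 10217, 10008 and 11022 before AAC, 7495, 7734 and 9694 at 4 weeks, and 8612, 8625 and 7874 with Akt on, so that both later groups lay below those before AAC without overlap. The differences were -0.33 (adjusted p = 0.118) and -0.31 (adjusted p = 0.0966). On 1417193_at the hearts read 9829, 11744 and 12029.8, then 7893, 9352 and 9892, then 7421, 9803 and 8939.9. Its differences from before AAC were -0.31 (adjusted p = 0.208) and -0.36 (adjusted p = 0.0982), with no overlap for the Akt hearts. The dim probe set 1417194_at differed by 0.01 and 0.14.

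**Figure D2:**
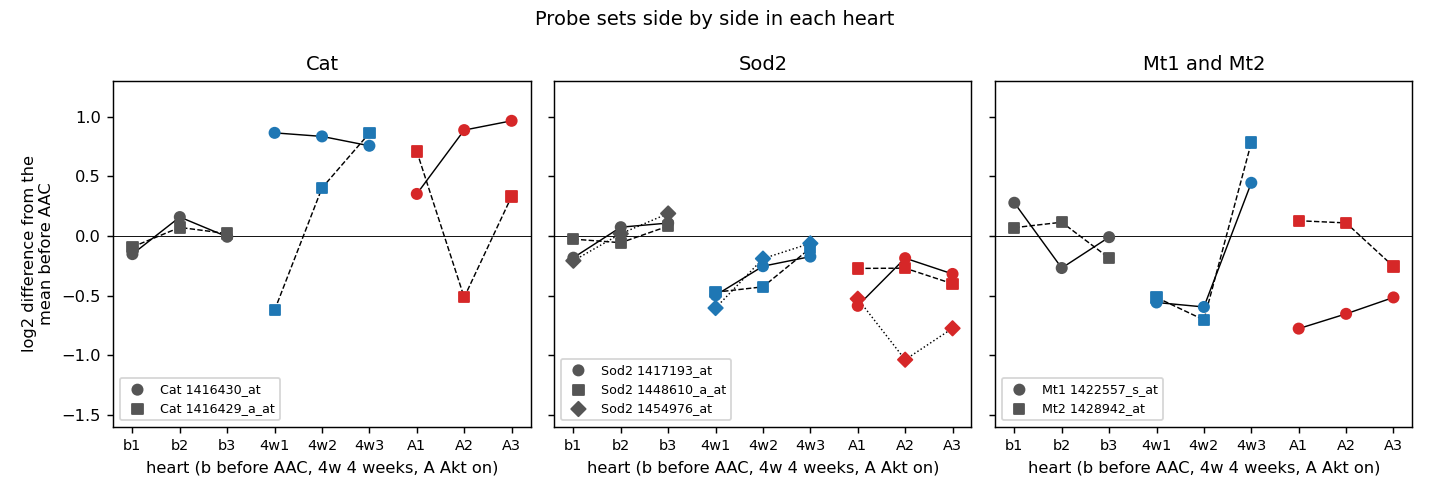
Log2 difference of each heart from the mean of the hearts before AAC, for 2 probe sets of Cat, 3 of Sod2, and Mt1 with Mt2; lines join values of a probe set within a group. The 2 Cat probe sets lie on opposite sides of 0 in 4-week replicate 1 and Akt replicate 2, the Sod2 probe sets all lie below 0 in the later hearts, and Mt1 and Mt2 are both above 0 in 4-week replicate 3 and on opposite sides of 0 in Akt replicates 1 and 2.

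The peroxidases did not pass the threshold in any comparison. Prdx3, the mitochondrial peroxiredoxin, had the narrowest range of the member probe sets. It read 4466, 4370.3 and 4680.2 before AAC, 5617, 5718 and 5894 at 4 weeks, and 4437, 4885 and 5632 with Akt on. All 4-week hearts lay above all hearts before AAC, and the Akt hearts spread over both ranges. The 4-week difference was 0.35 (SE 0.11, 95% interval 0.10 to 0.59, adjusted p = 0.0959), and Akt on differed from 4 weeks by -0.21 (adjusted p = 0.373).

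Gpx1, the widespread cytosolic glutathione peroxidase, read 2132, 3195 and 2526 before AAC, 4156, 3557 and 2379 at 4 weeks, and 3015, 3471 and 3249 with Akt on. The groups overlapped, and its differences from before AAC were 0.34 and 0.32 (adjusted p = 0.347 and 0.319). Gpx3, the secreted glutathione peroxidase, read 5736, 11843 and 7403 before AAC, 11495, 6223 and 4922 at 4 weeks, and 11492, 7643 and 7679.8 with Akt on. Each group held 1 heart well above its others, and the differences between groups of -0.17, 0.31 and 0.14 had adjusted p of 0.671 or more.

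Within each group, the heart with the highest Gpx3 was also the one with the highest atrial score. Replicate 2 before AAC (atrial score 14.4), 4-week replicate 1 (14.0) and Akt replicate 1 (14.0) were these hearts. Replicate 3 before AAC, with a score of 13.4, read lower on Gpx3 (7403) than Akt replicates 2 and 3 (7643 and 7679.8), whose scores were 8.61 and 11.1. Within groups, Gpx3 was higher by 0.16 on the log2 scale for each unit of the score (SE 0.03). This slope, fitted after the Gpx3 values had been seen, had an adjusted p of 0.0713 over all probe sets, so that it missed the threshold. The same fit called none of the 18 member probe sets and 18 of all 27083 (0.0665%). In it 4 member probe sets had an unadjusted p under 0.05, but the share of all probe sets under that value was not worked out. No link of the members to the score is therefore read from this count. The other 3 of these slopes were -0.09 for Mt1, 0.06 for Gpx1 and -0.07 for Sod2 1417194_at. The slope of Cat 1416430_at was -0.01 (SE 0.03).

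**Figure D3:**
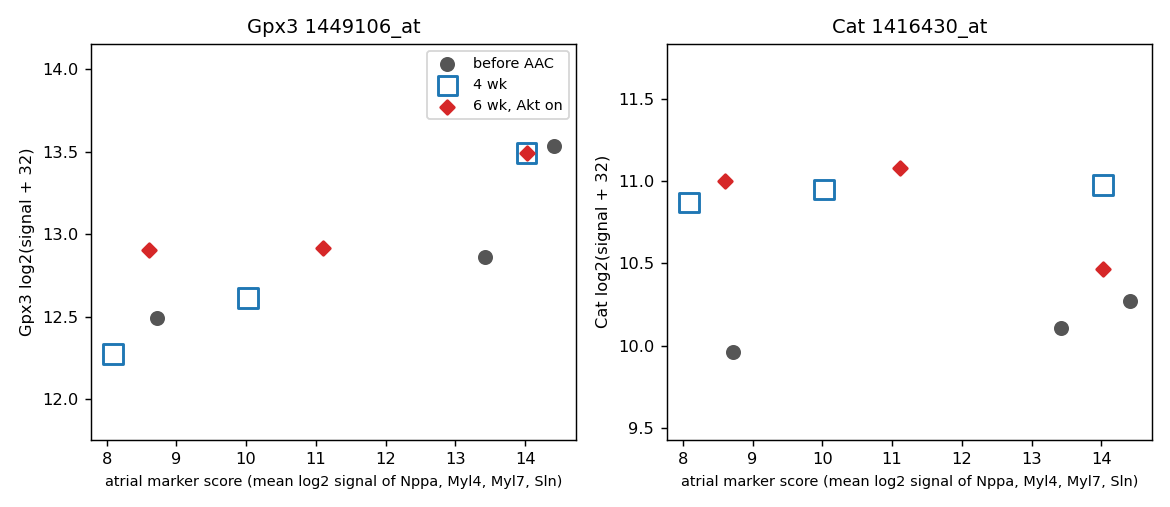
Log2(signal + 32) of Gpx3 (1449106_at) and Cat (1416430_at) against the atrial marker score, 1 point per heart (n = 9); circles are hearts before AAC, open squares 4 weeks, diamonds Akt on. The 3 hearts with the highest Gpx3 have the 3 highest scores, and 4-week replicate 1 and Akt replicate 1 coincide; Cat lies higher in every later heart than in every heart before AAC, and the later groups overlap.

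Hmox1 and Gclc, which the Nrf2 pathway is known to raise, were dim and not past the threshold. Hmox1 read 148, 154 and 26.3 before AAC, 181, 156 and 145 at 4 weeks, and 191, 198 and 168 with Akt on. Replicate 3 before AAC stood far below all other hearts, and the Akt hearts lay above the whole group before AAC. Its differences from before AAC were 0.62 (SE 0.37, adjusted p = 0.355) and 0.80 (SE 0.37, adjusted p = 0.179), and over the fits without a heart they ran from 0.07 to 0.91 and from 0.25 to 1.08. The low ends of these ranges were those without that heart. Gclc overlapped between all groups on both probe sets, with signals of 116 to 275 on 1424296_at and of 122 to 220.5 on 1455959_s_at, and its differences between groups were 0.09 to 0.23.

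The metallothionein genes Mt1 and Mt2 are neighbours on mouse chromosome 8, with no gene between them in RefSeq. Their promoters are shown because the metal-sensing factor Mtf1 is known to act on short metal response elements there. RefSeq gives 250 bases before to 50 after the start in GRCm38.p6. Both lie on the plus strand, Mt1 at chr8:94178839-94179138 and Mt2 at chr8:94172368-94172667. Capitals mark every match, on either strand, to the metal response core, searched as TGCACNC or TGCGCNC.
Mt1: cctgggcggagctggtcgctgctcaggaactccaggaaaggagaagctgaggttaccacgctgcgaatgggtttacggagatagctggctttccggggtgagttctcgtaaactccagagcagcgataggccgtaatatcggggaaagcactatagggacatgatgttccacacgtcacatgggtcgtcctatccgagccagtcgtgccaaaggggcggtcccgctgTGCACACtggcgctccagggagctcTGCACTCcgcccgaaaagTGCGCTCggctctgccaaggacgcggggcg
Mt2: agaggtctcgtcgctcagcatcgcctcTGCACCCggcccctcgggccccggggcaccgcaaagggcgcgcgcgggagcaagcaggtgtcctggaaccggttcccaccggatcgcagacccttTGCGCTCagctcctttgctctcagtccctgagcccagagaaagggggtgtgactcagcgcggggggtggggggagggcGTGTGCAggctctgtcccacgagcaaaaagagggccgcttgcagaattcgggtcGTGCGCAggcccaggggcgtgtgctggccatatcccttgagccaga

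The Mt1 stretch held the core at 3 places, from bases -23, 3 and 21 counted from the start, all on the plus strand. The Mt2 stretch held it at 4, from -223 and -128 on the plus strand and from -50 and 5 on the minus strand. Of 32851 promoters of that length in the table, 25.7% held the core and 1.97% held it at 3 or more places. Promoters of 8 of the 10 members were found, not those of Hmox1 and Gclc, and the other 6 promoters held no core. The antioxidant response core, searched as TGACNNNGC on both strands, lay in Mt2 (from -79) and Sod1 (from -56), and in 12.4% of all promoters. The FoxO core TGTTTAC was found in none of the 8 and in 3.65% of all. A match describes letters and no binding.

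Mt1, read on 1422557_s_at, whose type can also match transcripts of other genes, gave 5968, 4073 and 4880.4 before AAC. It gave 3328, 3241 and 6706 at 4 weeks, and 2854, 3113 and 3428 with Akt on. The Akt hearts all lay below the hearts before AAC, and 4-week replicate 3 lay above every other heart. Mt1 differed by -0.24 at 4 weeks (SE 0.24, adjusted p = 0.622). With Akt on it differed from before AAC by -0.65 (1.57-fold lower, SE 0.24, adjusted p = 0.0996), which missed the threshold. Without 4-week replicate 3, which widens the shared estimate of the spread, the last difference was unchanged and its adjusted p was 0.0151, so that the call turns on this heart. Akt on against 4 weeks differed by -0.41 (adjusted p = 0.421).

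Mt2 read 836, 864 and 696 before AAC, 546, 476 and 1392 at 4 weeks, and 872, 860.5 and 661 with Akt on. The 4-week group held both its lowest and its highest hearts, and the other 2 groups covered nearly the same range. Its differences were -0.15, 0.14 and -0.01, with 95% intervals that reach from -0.81 to 0.52 for 4 weeks and from -0.67 to 0.66 for Akt on against before AAC. Both metallothioneins were highest in 4-week replicate 3.

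The pair was also compared within each heart, where the level of the difference has no meaning of its own, since the probe sets differ in brightness, but its change between hearts does. The log2 difference of Mt1 over Mt2 within a heart was 2.79, 2.20 and 2.76 before AAC, 2.54, 2.69 and 2.24 at 4 weeks, and 1.67, 1.82 and 2.32 with Akt on. Akt replicates 1 and 2 lay below all other hearts and replicate 3 within them. The group means were 2.58 ± 0.33, 2.49 ± 0.23 and 1.94 ± 0.34 (SD, n = 3). Exact two-sided permutation tests gave p = 0.6, 0.2 and 0.2 for the 3 comparisons (0.6, 0.3 and 0.3 after adjustment), where 3 hearts against 3 cannot give less than 0.1.

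Counted together, 2 of the 18 member probe sets (11.1%) were past the threshold at 4 weeks, 1 higher and 1 lower, beside 4.43% of all probe sets, 2.75% higher and 1.68% lower. With Akt on against before AAC there were 3 (16.7%), 1 higher and 2 lower, beside 13.4% (6.86% higher and 6.51% lower). With Akt on against 4 weeks limma called 0, beside 2.54%, and 2 had an unadjusted p under 0.05 beside 17% of all. The share for Akt on against before AAC is near its background, which itself moves: 3623 probe sets were called there, and 1696 to 4083 without 1 heart (lowest without replicate 3 before AAC). That number fell further without the 4 hearts with the highest atrial score, where 1 heart before AAC is left. The groups did not overlap for 5 member probe sets at 4 weeks (27.8%, beside 29.3% of all), for 1 between the later groups (5.56%, beside 20.6%) and for 7 between Akt on and before AAC (38.9%, beside 32.1%). The median differences were, in that order, -0.16, 0.02 and 0.14, beside -0.04, 0.02 and -0.01 over all probe sets. The comparisons share groups, so that their values stand side by side only.

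**Figure D4:**
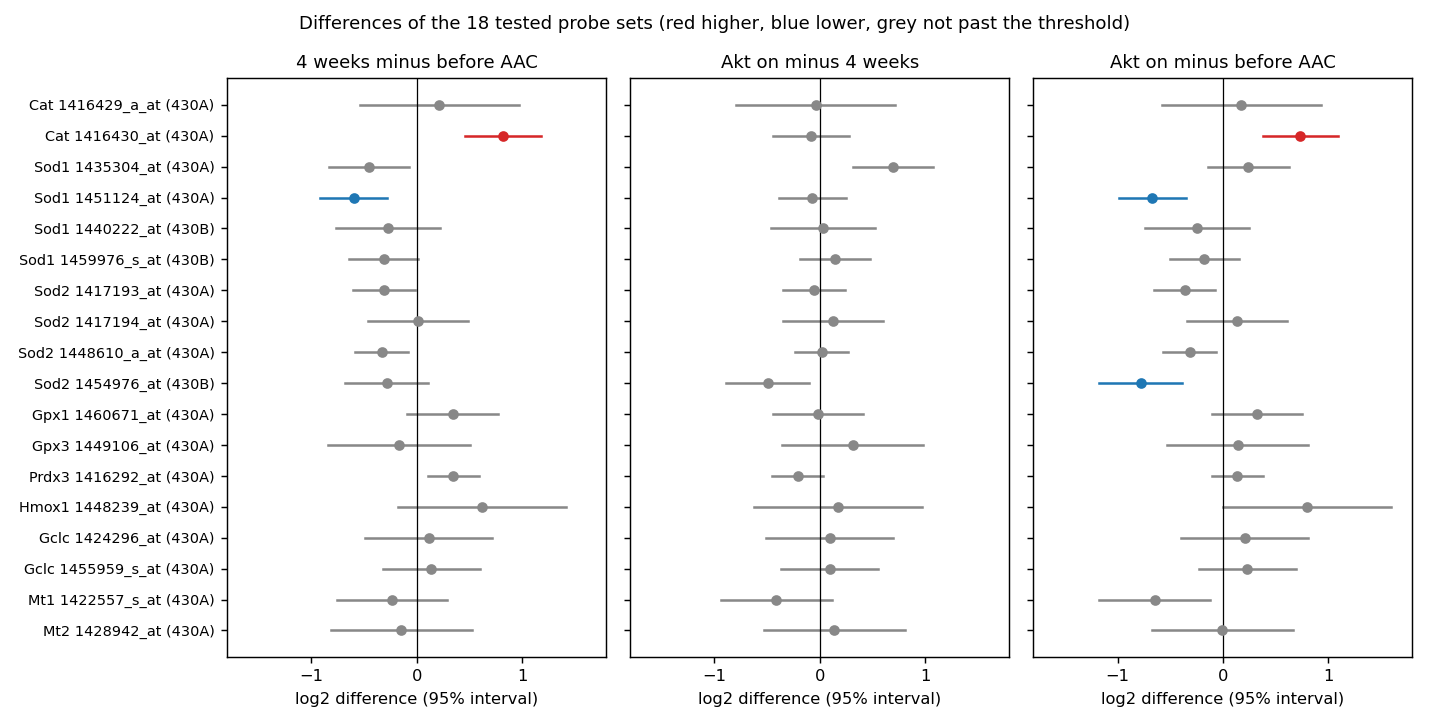
Log2 difference of the 18 tested member probe sets with its 95% interval in the 3 comparisons; red is past the threshold and higher, blue past it and lower, grey not past it. Cat 1416430_at and Sod1 1451124_at are coloured against the hearts before AAC at both times, Sod2 1454976_at only with Akt on, and none between the later groups.

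The ratio of 3′ to 5′ probe sets moves with both comparisons against the hearts before AAC. With that ratio as a covariate, the differences of Cat 1416430_at were 0.64 at 4 weeks and 0.54 with Akt on, those of Sod1 1451124_at -0.28 and -0.32, and that of Sod2 1454976_at with Akt on -0.31. None of these was past the threshold (adjusted p from 0.765 to 0.887), and 0 of all 27083 probe sets were called in either comparison. With the atrial score as a covariate, by contrast, all these calls were kept and Mt1 was added (Akt on against before AAC, -0.73, adjusted p = 0.0298).

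The genes whose profiles over the 9 hearts were closest to the members were sought among 8265 genes of chip 430A by the root mean square difference of centred log2 signals, as a description. Cat 1416430_at was closest to Vapa (0.0873), Clybl (0.0932) and Rpa2 (0.0966). Vapa, for example, read 1249 to 1518 before AAC, 2267 to 2423 at 4 weeks, and 1718, 2532 and 2445 with Akt on, with replicate 1 again the lowest of the Akt hearts. Mt1 was closest to Slc38a2 (0.172), an amino acid transporter, Tob2 (0.173) and Stk39 (0.179). Slc38a2 and Tob2, like Mt1, were highest in 4-week replicate 3, and Stk39 was highest in replicate 1 before AAC (919, beside 893 in 4-week replicate 3). Mt2 was closest to Shmt1 (0.192), an enzyme of one-carbon metabolism, Barhl1 (0.221) and Iqgap2 (0.223). Mt2 was rank 1354 in likeness to Mt1, and Mt1 was rank 457 in likeness to Mt2, at a difference of 0.377.

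Of 152 other genes of antioxidant defence, metal handling and their regulators, in 10 lists, 125 were tested with 1 probe set each. At 4 weeks 4 rose and 1 fell (4%), beside 4.5% of all genes taken with 1 probe set each. With Akt on against 4 weeks 2 rose and 10 fell (9.6%, beside 3.25%), and against before AAC 11 rose and 16 fell (21.6%, beside 14.1%). The lists were chosen with earlier results of these data known, so that shares above those of all genes are a description only. The split by direction over all genes was not worked out, so that no lean in direction is read from these counts. Median differences were -0.04, 0.02 and 0.02. Of the genes of glutathione and its peroxidases, 1, 1 and 4 of 10 changed in the 3 comparisons, in that order here and below. Glrx, a glutaredoxin that uses glutathione to reduce protein thiols, read 554, 426 and 442 before AAC, 753, 925 and 869 at 4 weeks, and 1109, 1355 and 1360.3 with Akt on. The groups did not overlap, and Glrx rose by 0.80 at 4 weeks (adjusted p = 0.0182) and by 1.37 in the Akt hearts against those before AAC (adjusted p = 0.000528).

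Gss, which completes glutathione, was higher by 0.76 with Akt on than before AAC, and Gpx8, a peroxidase of the endoplasmic reticulum, by 0.91. Ggt5, of the family that cleaves extracellular glutathione, fell by 0.67 with Akt on against 4 weeks (adjusted p = 0.0461) and was lower by -0.96 than before AAC. Of the glutathione S-transferases, 0, 2 and 3 of 14 changed, all lower. Gstm1 read 3915, 3884 and 3996 before AAC, 4167, 3378 and 3497 at 4 weeks, and 2121, 1498 and 1683 with Akt on. Gstm1 fell 2.08-fold with Akt on against 4 weeks (-1.05, SE 0.14, adjusted p = 0.00378), but its probe set is of the type that can read close relatives. Another Gstm1 probe set not of that type, 1448330_at, gave -1.03 there (adjusted p = 0.0106), and 1425627_x_at gave -1.01 (adjusted p = 0.0215). The remaining one, 1425626_at, gave -0.35 (adjusted p = 0.401). Gstk1 fell by 0.68 against 4 weeks (adjusted p = 0.0436) and Gstp1 was lower by -0.48 than before AAC.

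Of the peroxiredoxins and thioredoxins, 2, 0 and 1 of 12 changed. Txnrd1, the cytosolic thioredoxin reductase, rose by 0.52 at 4 weeks (adjusted p = 0.0393). Msrb1, a selenium enzyme that repairs oxidized methionine, rose by 0.81 at 4 weeks (adjusted p = 0.0375) and was higher by 1.06 with Akt on than before AAC. Of the partners of superoxide dismutase and the sources of superoxide, 1, 1 and 2 of 12 changed, all lower on the probe set chosen for the gene. Xdh, the xanthine oxidoreductase that can form superoxide, read 623, 564 and 522 before AAC, 609, 541 and 829 at 4 weeks, and 248, 279 and 283 with Akt on. It fell 2.26-fold with Akt on against 4 weeks (-1.18, SE 0.17, adjusted p = 0.00442). Ucp3, a mitochondrial carrier, was lower at 4 weeks by -0.85 (adjusted p = 0.0254). Another Ucp3 probe set, 1420658_at, gave -0.27 there (adjusted p = 0.552) and was higher with Akt on against 4 weeks (1.06, adjusted p = 0.0381) and against before AAC (0.79, adjusted p = 0.0436). Cyba, a subunit of NADPH oxidases, was lower by -0.61 with Akt on against before AAC.

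Of the Nrf2 pathway and NADPH supply, 0, 1 and 6 of 14 changed. Nnt, the mitochondrial transhydrogenase that makes NADPH, read 9324, 8422 and 8631 before AAC, 7599, 10002 and 10898 at 4 weeks, and 3833, 4490.2 and 4825 with Akt on. The Akt hearts lay below all others, and Nnt fell 2.14-fold against 4 weeks (-1.10, SE 0.14, adjusted p = 0.00312). Against before AAC, Pgd of the pentose phosphate pathway (0.94) and Me1, malic enzyme (1.15), were higher, both cytosolic sources of NADPH. Idh2, a mitochondrial source, was lower (-0.68), as were Bach1, a repressor of Nrf2 targets (-0.77), and Nqo1, a known Nrf2 target (-0.57). Another Me1 probe set, 1416632_at, gave -0.14 (adjusted p = 0.605), and another Bach1 probe set, 1449311_at, gave -0.26 (adjusted p = 0.591). For Pgd, 1437380_x_at gave 0.68 (adjusted p = 0.0122), 1436771_x_at 0.48 (adjusted p = 0.055) and 1438627_x_at 0.04 (adjusted p = 0.899). Against 4 weeks, Nnt probe set 1456573_x_at gave -1.06 (adjusted p = 0.00724) and 1432608_at -0.37 (adjusted p = 0.579).

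Of the heme and iron genes 0 of 8 passed the threshold in any comparison, and of the zinc and copper genes 0 of 13. The smallest p in the former belonged to Alas1, of heme synthesis (0.45 for the Akt hearts against those before AAC, adjusted p = 0.0674), and Slc40a1, the iron exporter (-0.43 at 4 weeks, adjusted p = 0.105). In the latter they belonged to the zinc transporters Slc39a1 (0.48 against 4 weeks, adjusted p = 0.129) and Slc30a5 (0.54 at 4 weeks, adjusted p = 0.0962). Mtf1, named for its role after its values had been seen, gave -0.26, 0.02 and -0.24.

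Of the peroxisomal partners of catalase, 1, 1 and 3 of 15 changed. Hsd17b4, of peroxisomal beta-oxidation, rose by 0.46 at 4 weeks (adjusted p = 0.0425). Phyh, of alpha-oxidation, fell by 0.61 with Akt on against 4 weeks (adjusted p = 0.0322). Against before AAC Pex3, needed for peroxisome assembly, was higher (0.89) and Pex6 lower (-0.51). Of the FoxO and PGC-1 regulators, 0, 4 and 4 of 14 changed. Foxo4 read 787, 848 and 726 before AAC, 887, 767 and 746 at 4 weeks, and 440.2, 448 and 462 with Akt on, and fell by 0.78 against 4 weeks (adjusted p = 0.00957). Of the sestrins, stress-induced regulators of the peroxiredoxin cycle, Sesn1 fell by 0.61 (adjusted p = 0.0407) and Sesn3 rose by 1.10 (adjusted p = 0.0103). Ppara, the lipid-sensing receptor, fell by 0.84 (adjusted p = 0.0486). Foxo3 was lower by -1.66 with Akt on than before AAC (adjusted p = 0.0268), while another Foxo3 probe set, 1434832_at, gave -0.49 (adjusted p = 0.0766).

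Of the glucocorticoid and acute-phase genes, some of which share inducers with metallothioneins, 0, 2 and 4 of 13 changed. With Akt on against 4 weeks Cdkn1a, the cell cycle inhibitor p21, rose by 1.31 (adjusted p = 0.0215) and Sgk1, a kinase induced by glucocorticoids, fell by 0.92 (adjusted p = 0.0413). Cdkn1a was higher by 1.99 with Akt on than before AAC. Another Cdkn1a probe set, 1421679_a_at, rose already at 4 weeks (1.76, adjusted p = 0.0209) and was higher by 3.15 with Akt on than before AAC. Its difference of 1.39 between the later groups missed the threshold (adjusted p = 0.0565). Against before AAC Lcn2, an iron-siderophore binding protein, was higher by 2.15 and Stat3 by 0.79, and Per1, a clock gene, lower by -1.08. Lcn2 turned sign with the RNA ratio as a covariate, and another Stat3 probe set, 1459961_a_at, gave -0.86 (adjusted p = 0.0177). Without each heart in turn, 0 of the 5 calls at 4 weeks, 5 of 12 between the later groups (Gstm1, Xdh, Nnt, Foxo4, Sesn3) and 18 of 27 against before AAC were kept in all 9 fits. The others reached adjusted p of up to 0.148, 0.155 and 0.142 without 1 heart. Of the 12 against 4 weeks, Ggt5 and Ppara were lost without any heart, and Gstk1, Sesn1, Sgk1, Phyh and Cdkn1a without 4-week replicate 3 among others. Of the 27, those not kept were Gpx8, Gstp1, Cyba, Bach1, Nqo1, Pex6, Foxo3, Per1 and Lcn2, of which all but Gpx8 and Gstp1 were lost without replicate 3 before AAC. Nqo1 and Lcn2 were lost without that heart only, and Cyba, Bach1, Pex6, Foxo3 and Per1 also without others. With quantile scaling Txnrd1 (adjusted p = 0.0552), Msrb1 (0.0517) and Hsd17b4 (0.0825) at 4 weeks, Gstk1 (0.0549) and Sesn1 (0.0511) against 4 weeks, and Idh2 (0.0703) against before AAC missed the threshold.

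**Figure D5:**
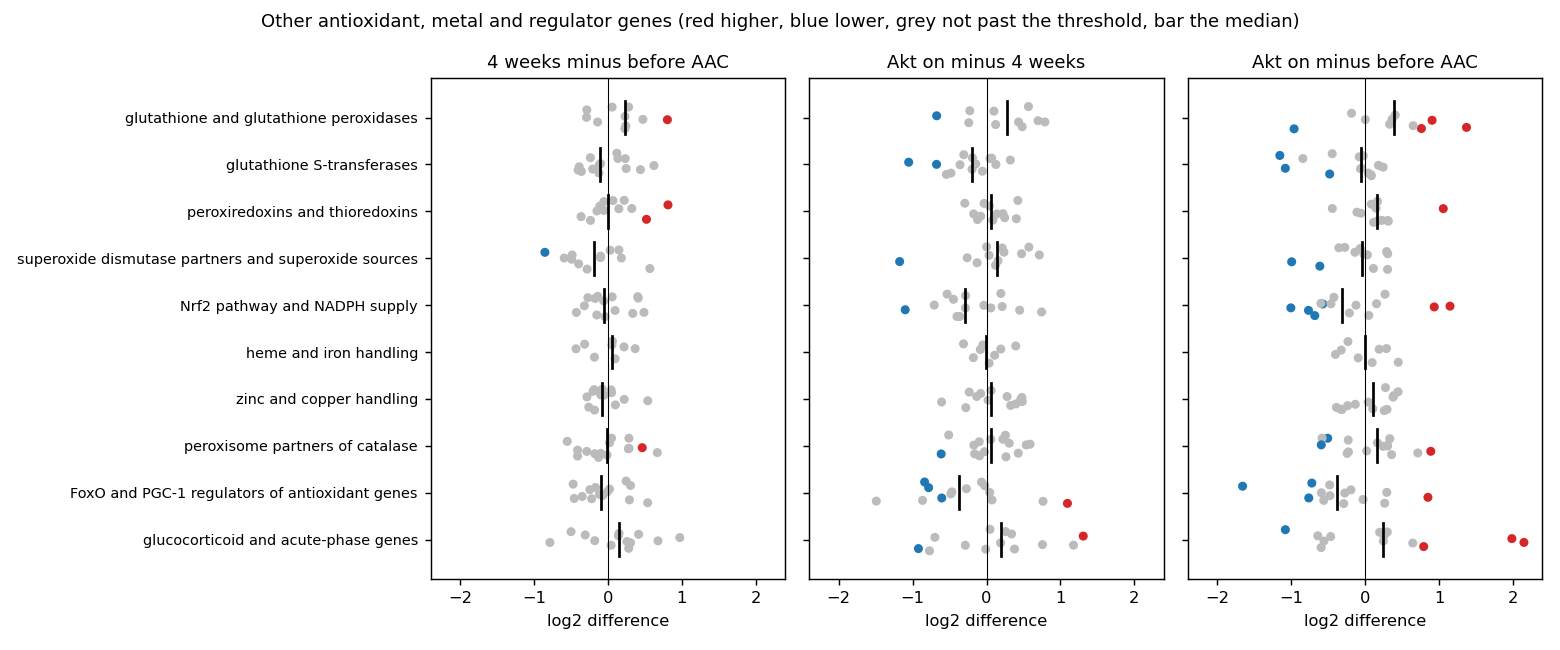
Log2 difference of the 125 tested genes of the 10 lists in the 3 comparisons, 1 point per gene; red rose, blue fell, grey not past the threshold, vertical bars the list's median. Blue points outnumber red with Akt on (10 against 2, and 16 against 11), while the median over the 125 genes was 0.02 in both comparisons. The split by direction over all genes taken with 1 probe set each was not worked out. The heme and zinc lists have no coloured point.

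Markers of other cells moved in part with the same comparisons. Sums of signals are given as a description, and they follow the brightest genes of a list. The summed signal of the 7 endothelial markers was 10756 to 11018 before AAC, 7186 to 8309 at 4 weeks and 6462 to 7101 with Akt on. Kdr alone read 3738 to 4282, 1671 to 2660 and 1626 to 1981. Kdr was lower at 4 weeks (-0.94, adjusted p = 0.0147) and Kdr, Tek and Tie1 were lower with Akt on than before AAC. In the latter, Pecam1 (0.02), Cdh5 (-0.32), Emcn (-0.49) and Vwf (-1.01) were not past the threshold. The 7 fibroblast markers summed to 34458 to 39400, 25968 to 41358 and 40408 to 63768, where Dcn alone read 19379 to 21017 before AAC. Col1a2, Col3a1 and Postn were higher with Akt on both against 4 weeks and against before AAC (1.02, 0.89 and 2.88 in the latter). The other fibroblast markers were not past the threshold. Against before AAC, Col1a1 gave 0.68, Lum 0.49 and Pdgfra -0.04 with Akt on, and Dcn went the other way (-0.37). The 8 macrophage markers summed to 9999 to 10732, 7372 to 10208 and 8182 to 11996, with none past the threshold. Cardiomyocyte markers summed to 203781 to 228909, 170386 to 176981 and 160178 to 198435, with Tnni3 and Mb lower at 4 weeks and Tnni3 and Myh6 lower with Akt on against before AAC. Of 7 markers of skeletal muscle 3 were tested: Acta1 was higher in both later groups than before AAC, while Ckm (-0.35 and -0.34) and Atp2a1 (-0.27 and 0.0021) were not past the threshold. Myh4, Myh1, Tnnt3 and Mylpf of that list were too dim to be tested. Of 4 markers of brown fat 2 were tested: Cidea was higher with Akt on against 4 weeks and before AAC, while Ppargc1a (-0.87 and -0.56) was not past the threshold. Ucp1 and Elovl3 were too dim to be tested. Of 6 markers of adipocytes 3 were tested: Fabp4 was lower with Akt on than before AAC and Adipoq and Retn were not past it. Of the other lists 1 gene each was tested (neutrophils 1 of 6, erythroid cells 1 of 7, liver 1 of 4), and it was not past the threshold; the 4 atrial markers were not either. Whether the listed muscle and fat genes were read from such cells or from other cells of the heart was not tested. The part of any of these cell types in the changes of Cat, Sod1 and Sod2 was not tested either.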

How the data were processed

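Heart RNA of 9 samples was read on 18 arrays (chips 430A and 430B). The authors deposited intensity values, the MAS5 signal of each probe set, made with MAS5 per the submitters' processing notes; its version and settings are not given in the sources used here. Each array of chip 430A had a 2% trimmed mean of 500.19 to 500.22 and each of chip 430B of 122.51, 4.083 times lower, so that a pseudocount of 32 weighs more on chip 430B. Here the arrays of a chip were brought to their average trimmed mean, and log2(signal + 32) was taken. Of 45265 probe sets, 128 controls were left out and the 60% brightest of each chip were tested (27083). Of those not controls, 35041 had 1 symbol, 936 several and 9160 none. Groups were compared with limma 3.58.1 in R 4.3.3 (lmFit, eBayes with a variance trend, all 9 hearts, Benjamini-Hochberg over both chips). On simulated data for the 4-week comparison (27083 probe sets), 52% of changes of 1 on the log2 scale and 3% of changes of 0.5 were recovered, with 1 false call. The number of arrays limits the precision.

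All members are named, and of each list every called gene and the 2 genes with the smallest p, each gene by its brightest probe set on chip 430A, else on 430B. The 10 lists were glutathione and glutathione peroxidases, glutathione S-transferases, peroxiredoxins and thioredoxins, superoxide dismutase partners and superoxide sources, Nrf2 pathway and NADPH supply, heme and iron handling, zinc and copper handling, peroxisome partners of catalase, FoxO and PGC-1 regulators, and glucocorticoid and acute-phase genes. Markers of 11 tissues or cell types were listed too. Members and lists were chosen with earlier results of these data known. Alternatives were other scaling, pseudocounts, filters, variance models, adjustment, covariates, a replicate block and leaving out hearts; the slope on the atrial score was added after the data were seen. Replicate numbers shared by groups were not taken as pairs.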

Additional observations from a re-analysis of the deposited data

How the results depend on the processing

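No member value that was past the threshold changed direction under any alternative. At 4 weeks the count of called member probe sets went from 2 to 1 (Cat kept, Sod1 lost) with quantile scaling, without the filter on dim probe sets, without a variance trend and with the replicate number as a block. It went to 0 with 4-week replicates 1 and 3 averaged, whose descriptions carry the same number, without the 4 hearts with the highest atrial score and with the RNA ratio as a covariate. The differences themselves were Cat 0.82 and Sod1 -0.61 with the averaged replicates and 0.95 and -0.62 without the atrial hearts, beside 0.82 and -0.60. The atrial exclusion leaves 1 heart before AAC, so that calls lost there cannot be told apart from the loss of hearts. Leaving out 1 heart at a time gave 0 to 2. Over all probe sets the count at 4 weeks was 1199, and 612, 748, 560, 498, 5 and 0 under the alternatives named after quantile scaling, in that order, 1733 with only the 2 groups compared, and 118 to 1799 without 1 heart. Between the later groups the member count of 0 went to 1 (Sod1 1435304_at, adjusted p = 0.0408) with adjustment within each chip, and was 0 to 0 without 1 heart. Over all probe sets 688 were called there, and 445 without the filter and 438 without a variance trend or with the RNA ratio as a covariate. The count was 431 with the block, 370 with the averaged replicates, 262 with only the 2 groups compared and 239 to 642 without 1 heart. It was lowest without the 4 hearts with the highest atrial score, among them 4-week replicate 1 and Akt replicate 1. With Akt on against before AAC the count of 3 went to 0 without the 4 atrial hearts and with the RNA ratio as a covariate, and was 0 to 4 without 1 heart. There too the atrial exclusion leaves 1 heart before AAC, which is assumed to vary like the others, and Cat gave 1.08.

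Replicate numbers did not pair the hearts: of 18 pairs with the same number, 1 had a correlation of deviations over 0.1 (range -0.24 to 0.14). With the replicate block the member counts were 1, 0 and 4, with Sod1 at 4 weeks at adjusted p = 0.0728 and Sod2 1417193_at added at 0.0477. In the simulation of the 4-week comparison, 3% of changes of 0.5 on the log2 scale were recovered. It changed 100 probe sets of each size, and adjustment is stricter there than in the data, where 1199 were called. At 4 weeks, changes near this size were called for some probe sets (Hsd17b4, 0.46) and not for others (Sod1 1435304_at, -0.45).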
